A study of Homo sapiens with 26 samples.

Results

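These data are the 4 RNA-seq total inputs that set AKAP1 null cells beside wild-type cells, 2 libraries of each, out of 26 samples in the series. They were chosen by label alone: RNA-seq, total input, AKAP1 knock-out monoclonal cells or wild-type cells with a negative control gRNA. The cells were HEK293T, a human embryonic kidney line, carrying Avi-tagged ribosomes and a light-controlled biotin ligase on the outer mitochondrial membrane (OMM), and total input is the RNA of the whole lysate before biotinylated ribosomes were pulled down. Every group therefore shares the tag, the ligase, biotin, blue light and, per the study's protocol, cycloheximide (CHX), an inhibitor of translation elongation. The titles of these libraries, wild type included, do not name CHX, nor do the labels of the null lines. The AKAP1 null cells are labelled monoclonal and were made with Cas9 and 1 gRNA, so what AKAP1 loss did and what is particular to a clone cannot be told apart. The wild-type line carries a negative control gRNA and is not labelled monoclonal. The 2 LARP4 null total inputs, also labelled monoclonal, entered the same fit and are given beside the results, as is 1 total input without CHX, whose label names no genotype. Library totals were 38347615 and 45939432 counts in wild type, 49357949 and 41796253 in AKAP1 null, and 47931044 and 100840544 in LARP4 null. Of 60663 genes in the tables, 13525 had a mean of at least 64 counts over the 4 AKAP1 null and wild-type total inputs and were tested.

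AKAP1 is an A-kinase anchoring protein of the OMM. It holds protein kinase A (PKA) at the mitochondrial surface through the kinase's regulatory subunits, and it carries a KH domain, which binds RNA, and a Tudor domain. Loss of such a protein can move where an mRNA sits without moving how much of it the cell holds, and total input measures the second. Levels are given as CPM, counts over the TMM-scaled library size, which are not divided by gene length and compare 1 gene between libraries, never 1 gene with another.

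The AKAP1 gRNA site, printed because it defines the mutant and located here from the residues the study targeted, lies at GRCh38 chr17:57105807-57105829 on the plus strand, in AKAP1 (ENSG00000121057, chr17:57085092-57121346). It falls in exon 2 of 11 of the canonical transcript, the first coding exon (57105441 to 57107178), of a protein of 903 residues. The study's methods place the site in exon 1. The reference sequence is given with the 3 bases of the PAM in capitals, and the edited alleles were not analysed here.
AKAP1 guide site: acagacatgagattgcgaccAGG

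AKAP1 mRNA stood at 111 and 122 CPM in the wild-type total inputs and at 31.9 and 20.4 CPM in the AKAP1 null total inputs. It stood at 121 and 144 CPM in LARP4 null and at 85.2 CPM in the library without CHX. Both AKAP1 null libraries lay far under every other total input, and some AKAP1 mRNA was counted in each. The fitted log2 difference was -2.15 ± 0.22 (SE), or 22.5% of the wild-type level. In pulldowns from the same lysates AKAP1 stood at 149 and 206 CPM in wild type and at 21.4 and 13.3 CPM in AKAP1 null, a log2 difference of -3.36 (edgeR, adjusted p = 0.016), where 630 of 13490 genes, 4.67%, passed the test. LARP4 mRNA, the target in the other line, stood at 218 and 235 CPM in wild type, 214 and 248 CPM in AKAP1 null, and 79.7 and 75.0 CPM in LARP4 null. Each targeted mRNA was thus lowest in the libraries labelled for its loss.

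**Figure D1:**
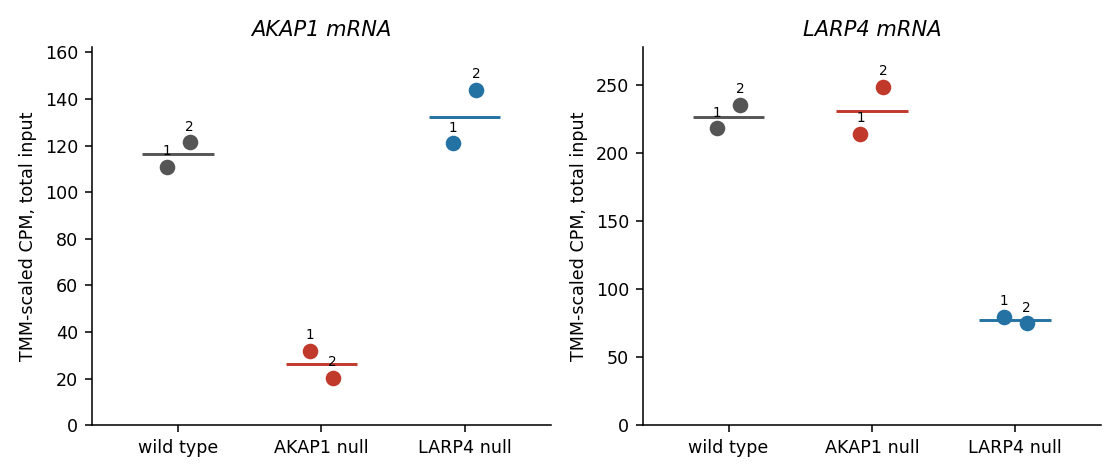
AKAP1 (left) and LARP4 (right) mRNA in TMM-scaled CPM, vertical axes from 0, in the 6 total inputs with CHX; points are single libraries marked by replicate number and lines are means of 2. AKAP1 null libraries sit at 31.9 and 20.4 CPM for AKAP1, and LARP4 null libraries at 79.7 and 75.0 CPM for LARP4.

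Replicates stood well apart in these data, which set what could be seen. Between the 2 wild-type total inputs 429 genes differed at least 2-fold (pseudocount 0.1 CPM), between the 2 AKAP1 null inputs 158, and between the 2 LARP4 null inputs 404. Across genotypes the 4 pairings of an AKAP1 null with a wild-type input gave 231, 468, 171 and 219 such genes. In 3 of these 4 pairings fewer genes differed than between the 2 wild-type replicates. Some genes parted the wild-type replicates widely: SV2A stood at 41.7 and 0.376 CPM, OAS3 at 16.2 and 0.244 CPM, PXDN at 69.5 and 3.76 CPM, and TNFRSF10D at 0 and 13.4 CPM, where 0 is 0 counts. SPARC, a secreted matrix protein, stood at 30.4 and 1.55 CPM. In AKAP1 null, SHROOM2 stood at 16.1 and 1.01 CPM, PRKCB at 16.4 and 1.61 CPM, ZNF91 at 6.71 and 0.360 CPM, and HOXB5 at 54.2 and 13.7 CPM.

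The pulldown of the same lysate showed the same differences. Over the 1000 genes that varied most, each total input correlated with its own pulldown at 0.805 to 0.946 and with any other pulldown at 0.286 or less; these genes share a lysate, so the figures describe the samples and carry no test. The sources used here do not state whether replicates are separate clones, passages or plates, so p-values measure only the spread between these libraries. With 2 libraries against 2, an exact permutation test of 1 gene cannot go below 0.333.

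**Figure D2:**
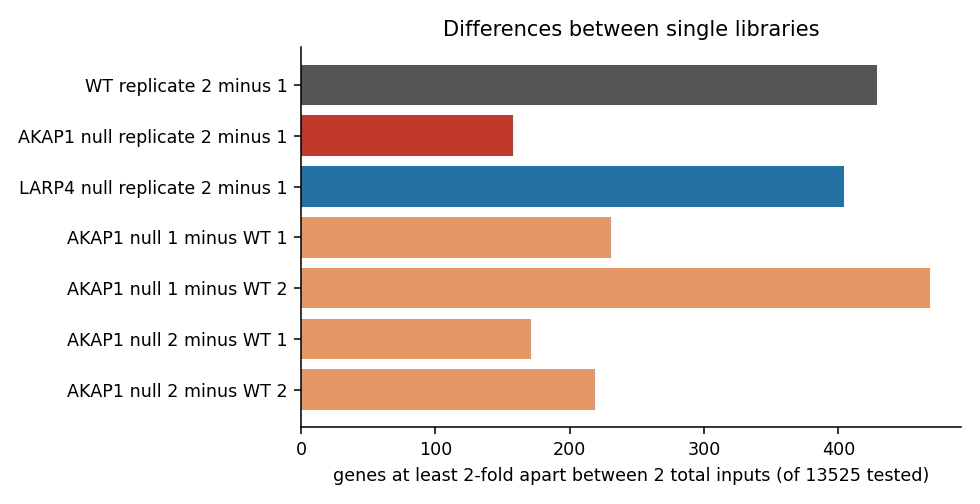
Number of tested genes at least 2-fold apart (horizontal axis, from 0) between single total inputs; grey, red and blue bars compare replicates of wild type, AKAP1 null and LARP4 null, and orange bars the 4 pairings of AKAP1 null with wild type. The wild-type replicate pair (429) and the LARP4 null pair (404) are longer than all but 1 of the orange bars (468).

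No gene passed an adjusted p of 0.05 between AKAP1 null and wild type in edgeR's quasi-likelihood test (0 of 13525, 0%). AKAP1 itself had the smallest p of all genes (3.3e-05) and an adjusted p of 0.447, and the next smallest adjusted p was 0.97. At an unadjusted p under 0.05, edgeR gave 208 genes higher in AKAP1 null (1.54%) and 266 lower (1.97%), which ran from 51 to 405 and from 82 to 456 when 1 library was left out, both lowest without AKAP1 null 1. Both AKAP1 null libraries lay above both wild-type libraries for 2408 genes (17.8%) and below both for 2419 (17.9%). DESeq2, run as an alternative on the same libraries, called 14 genes (0.104%), 7 in each direction, AKAP1 among them with an adjusted p of 2.5e-17. AKAP1's call thus depended on the tool and filter, and its size did not. Against LARP4 null, edgeR again called 0 genes (0%), with 293 higher (2.17%) and 298 lower (2.2%) at an unadjusted p under 0.05, and DESeq2 called 21 higher and 13 lower.

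Among the genes lower in AKAP1 null by DESeq2, YES1, a SRC-family tyrosine kinase, stood at 79.7 and 90.6 CPM in wild type and 48.1 and 47.4 CPM in AKAP1 null. It was 92.8 and 103 CPM in LARP4 null, so the AKAP1 null libraries were the lowest of the 6 (log2 -0.83 ± 0.11 SE; DESeq2 adjusted p = 2.4e-06, edgeR 0.97). LIN7A, a scaffold protein of cell junctions, stood at 31.2 and 32.5 CPM in wild type, 19.8 and 17.9 CPM in AKAP1 null, and 27.8 and 26.4 CPM in LARP4 null (log2 -0.75; DESeq2 adjusted p = 0.00051). Their pulldown log2 differences were -0.36 each, with edgeR adjusted p of 0.295 for YES1 and 0.449 for LIN7A. EPHA6, an ephrin receptor, stood at 10.1 and 10.7 CPM in wild type and 4.58 and 5.84 CPM in AKAP1 null, and PDGFA, a growth factor chain, at 15.04 and 18.82 CPM and at 8.50 and 9.63 CPM. Both were also lower in the pulldowns, by log2 -1.25 for EPHA6 and -1.21 for PDGFA (edgeR, adjusted p = 0.032 and 0.036). EDIL3, an integrin ligand, stood at 6.85 and 10.6 CPM against 3.52 and 2.88 CPM. ARPIN, an inhibitor of the Arp2/3 complex encoded on chromosome 15, stood at 75.0 and 100.3 CPM against 41.3 and 53.2 CPM, with LARP4 null between them at 56.0 and 63.9 CPM.

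Among the genes higher in AKAP1 null by DESeq2, HSP90AA1, the inducible cytosolic HSP90, is described with the chaperones. AKAP12, another anchoring protein for PKA, stood at 138 and 146 CPM in wild type and 216 and 195 CPM in AKAP1 null (log2 0.53 ± 0.11 SE; DESeq2 adjusted p = 0.0207, edgeR 0.97). In LARP4 null it stood at 196 and 216 CPM, the same range as AKAP1 null, so AKAP12 stood higher in both null genotypes than in wild type. AKAP12 lies on chromosome 6, whose genes as a whole stood lower in wild type 1. CASP10, an initiator caspase, had the same layout: 2.33 and 2.48 CPM in wild type, 4.74 and 6.53 CPM in AKAP1 null, 6.01 and 6.14 CPM in LARP4 null. MNS1, a protein of cilia and flagella, stood at 5.59 and 3.06 CPM in wild type, 11.6 and 10.6 CPM in AKAP1 null, and 9.68 and 11.1 CPM in LARP4 null. ERICH5 differed in that LARP4 null stayed with wild type: 3.01 and 2.24 CPM in wild type, 7.50 and 7.18 CPM in AKAP1 null, 3.48 and 3.83 CPM in LARP4 null. ERICH5 was also higher in the pulldowns (log2 1.49; edgeR adjusted p = 0.033).

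A difference of at least 2-fold in all 4 pairings was found for 8 genes higher (0.0591%) and 5 lower (0.037%), a rule added after the values were seen. Those higher were ERICH5, PAK3, CHRM3, PRRX1 and the noncoding LINC01036, CYTOR, MIR4435-2HG and GNAS-AS1, and those lower were AKAP1, RUNX1T1, PLXNA4, SNAI2 and the pseudogene GOLGA8VP. LINC01036 had 2 and 2 counts in wild type and 197 and 164 in AKAP1 null, or 3.96 and 3.94 CPM, with 0.0838 and 0.935 CPM in LARP4 null. PRRX1, a homeodomain factor of mesenchymal cells, stood at 0.101 and 0.376 CPM in wild type, 2.995 and 5.813 CPM in AKAP1 null, and 4.001 and 0.282 CPM in LARP4 null. CHRM3, a muscarinic receptor, stood at 0.455 and 0.753 CPM, 3.48 and 1.66 CPM, and 5.87 and 0.905 CPM in the same order. SNAI2, a repressor of epithelial genes, stood at 14.9 and 16.1 CPM in wild type, 2.67 and 6.75 CPM in AKAP1 null, and 1.49 and 12.7 CPM in LARP4 null. PRRX1, CHRM3 and SNAI2 thus parted the LARP4 null replicates as well, so a step of this size was also seen within 1 genotype. RUNX1T1 parted the AKAP1 null replicates themselves, at 3.20 and 0.120 CPM. CYTOR and MIR4435-2HG are near-identical copies, and GOLGA8VP belongs to a repeated family, so reads may be split between copies and their values are uncertain.

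Most partners of AKAP1 differed little from wild type by the fit. Of 23 listed AKAP genes and PKA subunits, 20 were tested, and at an unadjusted p under 0.05 in edgeR 1 was higher (AKAP12) and 1 lower (AKAP1), against 1.54% and 1.97% of all genes. Both AKAP1 null libraries lay above both wild-type ones for 30% and below for 20%, against 17.8% and 17.9% of all genes, and the list's median log2 was -0.01, beside 0.00 over all genes tested. AKAP13, another anchoring protein, encoded on chromosome 15, had a log2 of -0.36 (edgeR unadjusted p = 0.0717), and the other 17 lay between -0.13 and 0.26. PRKAR2A, the type II regulatory subunit that AKAP1 anchors, stood at 282 and 293 CPM in wild type and 337 and 309 CPM in AKAP1 null (log2 0.17 ± 0.13 SE). PRKACA, the catalytic subunit, stood at 136 and 135 CPM against 132 and 126 CPM. Among 15 RNA-binding and LARP genes tied to the OMM, 1 was past an unadjusted p of 0.05: FXR1, an RNA-binding paralog of FMR1, at 151 and 150 CPM against 192 and 174 CPM (log2 0.28).

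Cytosolic chaperone mRNAs stood, by their median, above wild type in every pairing of libraries. The heat shock response is a conserved program in which HSF1 binds heat shock elements in promoters and raises HSP70, HSP90 and their co-chaperones, which fold and refold cytosolic proteins, and the CCT ring folds actin and tubulin with the help of prefoldin. Of 38 heat shock, HSP70 and HSP90 genes 33 were tested; both AKAP1 null libraries lay above both wild-type libraries for 54.5% of them and below for 3.03%, against 17.8% and 17.9% of all genes. At an unadjusted p under 0.05 edgeR gave 10 higher and 0 lower, against 1.54% and 1.97% of all genes. The median log2 was 0.21, and the medians of the 4 pairings were 0.26, 0.11, 0.29 and 0.17. Both AKAP1 null libraries exceeded all 4 wild-type and LARP4 null libraries for 15 of the 33 genes (45.5%), against 7.03% of all genes, and lay under all 4 for 0, against 7.31%. This list was made after the values were seen, so it carries no test, and no member passed edgeR's adjusted p of 0.05.

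HSP90AA1 stood at 2728 and 2725 CPM in wild type, 3910 and 3517 CPM in AKAP1 null, and 3183 and 3018 CPM in LARP4 null. The log2 difference was 0.45 ± 0.11 (SE), with an adjusted p of 0.029 in DESeq2 and 0.97 in edgeR. The 2 AKAP1 null libraries were the highest of the 6 and the 2 wild-type libraries the lowest. HSPH1, the HSP110 nucleotide exchange factor of HSP70, stood at 397 and 407 CPM in wild type, 574 and 548 CPM in AKAP1 null, and 374 and 505 CPM in LARP4 null (log2 0.48). DNAJA1, an HSP40 co-chaperone, stood at 497 and 485 CPM in wild type, 622 and 611 CPM in AKAP1 null, and 497 and 512 CPM in LARP4 null (log2 0.33). CHORDC1, a co-chaperone of HSP90, stood at 164 and 158 CPM, 196 and 220 CPM, and 177 and 167 CPM in the same order (log2 0.37). For each of these the AKAP1 null libraries were the 2 highest of 6. HSPA8, the constitutive HSP70, was not of that kind: 1909 and 2173 CPM in wild type, 2626 and 2572 CPM in AKAP1 null, and 2696 and 2266 CPM in LARP4 null (log2 0.35). BAG3, an HSP70 co-chaperone in autophagy, stood at 35.4 and 32.9 CPM against 46.6 and 43.4 CPM (log2 0.40), HSPA4 at 510 and 512 CPM against 636 and 621 CPM (log2 0.30), and HSPA4L at 201 and 194 CPM against 234 and 235 CPM (log2 0.25).

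HSPA1B, an inducible HSP70, stood at 264 and 298 CPM against 327 and 447 CPM (log2 0.46), and HSP90AB1, the constitutive HSP90, at 1659 and 2185 CPM against 2383 and 2606 CPM (log2 0.38). Both genes lie on chromosome 6, whose genes as a whole stood lower in 1 wild-type library, and HSPA1B shares reads with its near-identical copy HSPA1A, so its value is uncertain. HSF1 itself, the factor of the response, stood at 57.8 and 68.4 CPM against 52.4 and 59.9 CPM (log2 -0.17). Without the genes of chromosomes 6 and 15 the list's median log2 stayed at 0.2, and leaving out 1 library of either genotype at a time it ran from 0.11 to 0.27. The count at an unadjusted p under 0.05 did not hold: 2 without AKAP1 null 1, 3 without AKAP1 null 2, 5 without wild type 1 and 6 without wild type 2. In the 1 library without CHX, which per the study's methods also had a shorter exposure to biotin and light, 20 of the 33 members (60.6%) lay under all 6 libraries with CHX and 4 above them, against 30.5% and 29.1% of all genes, a count added after seeing the data. Among the former HSPA1B stood at 22.2 CPM, HSPA8 at 489 CPM, DNAJA1 at 163 CPM, HSPH1 at 194 CPM and HSP90AA1 at 1490 CPM. The part of CHX exposure in the difference between genotypes was not tested.

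The promoters of these genes are shown because the response acts through a fixed DNA motif. The heat shock element was searched as TTCNNGAANNTTC, or GAANNTTCNNGAA on the other strand, from 250 bases before to 50 bases after each start in RefSeq's GRCh38.p14 promoters. It was found in 4 of 28 promoters of the list (14.3%), in 29 of 10320 promoters of tested genes (0.281%) and in 0.487% of all 27305, and in 0 of 12 promoters of CCT and prefoldin genes. Of the 10 members with an unadjusted p under 0.05, 3 held it, and their sites are printed with 8 bases on either side and the motif in capitals. They lie at chr9:33025268-33025296 on the plus strand for DNAJA1, and on the minus strand at chr11:123062171-123062199 for HSPA8 and chr11:90223084-90223112 for CHORDC1; HSPA8 held another match and CHORDC1 overlapping ones. A match is a run of letters and was not measured as a bound site. The list was picked as genes of this response, so its share of motifs follows from that choice and says nothing about AKAP1 null.
DNAJA1 promoter: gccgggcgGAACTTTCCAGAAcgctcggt
HSPA8 promoter: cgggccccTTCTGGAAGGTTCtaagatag
CHORDC1 promoter: ccggaaaaTTCGCGAAGGTTCctgaaacg

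**Figure D3:**
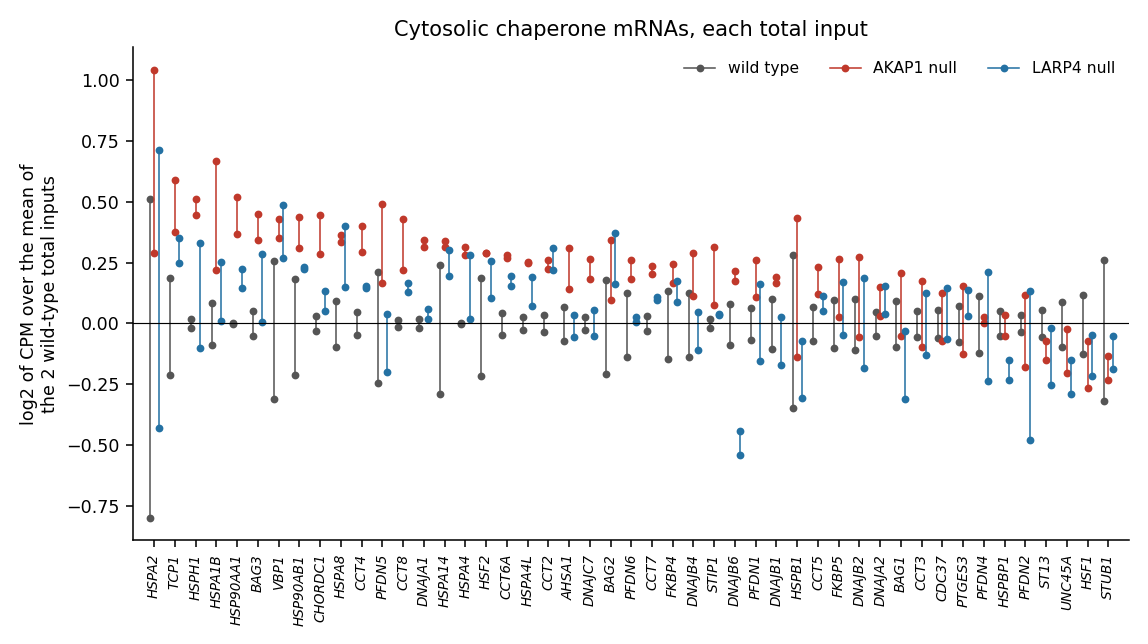
Each heat shock, HSP70, HSP90, CCT and prefoldin gene tested (horizontal axis, by fitted difference), as log2 of its CPM over the mean of the 2 wild-type total inputs; a line joins the 2 libraries of wild type (grey), AKAP1 null (red) and LARP4 null (blue). Red points such as HSP90AA1 (3910 and 3517 CPM) lie above the grey ones in most genes of the left side, and blue points lie lower than the red ones in most of these genes.

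The CCT chaperonin and prefoldin subunits, 14 genes that were all tested, showed the same layout. Both AKAP1 null libraries lay above both wild-type ones for 71.4% and below for none (0%), against 17.8% and 17.9% of all genes, the median log2 was 0.23, and the pairings gave 0.29, 0.19, 0.25 and 0.18. Both lay above all 4 other libraries for 7 of 14 (50%, against 7.03% of all genes). At an unadjusted p under 0.05 edgeR gave 5 higher and 0 lower (1.54% and 1.97% of all genes), 0 when AKAP1 null 1 or wild type 1 was left out, 3 without AKAP1 null 2 and 4 without wild type 2, and 3 with the replicate number as a block. CCT4, 1 of the ring subunits, stood at 639 and 682 CPM in wild type, 871 and 810 CPM in AKAP1 null, and 730 and 735 CPM in LARP4 null (log2 0.35). CCT8 stood at 647 and 658 CPM, 880 and 760 CPM, and 714 and 732 CPM, and CCT6A at 510 and 543 CPM, 635 and 639 CPM, and 603 and 586 CPM, in the same order. In these 3 genes the LARP4 null libraries lay between the other lines. CCT2 (log2 0.24) and TCP1 (log2 0.49) were also past an unadjusted p of 0.05, and TCP1 lies on chromosome 6. CCT2 was as high in LARP4 null, at 587 and 550 CPM, as in AKAP1 null, at 566 and 552 CPM. CCT3, at 530 and 570 CPM against 514 and 620 CPM, did not separate the genotypes.

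Proteasome subunits, which form the protease that degrades ubiquitinated proteins, were slightly higher as a list of 33 tested genes. Both AKAP1 null libraries lay above both wild-type ones for 60.6% and below for 3.03%, against 17.8% and 17.9% of all genes, the median log2 was 0.15, and the pairings gave 0.10 to 0.17. Both lay above all 4 other libraries for 11 genes (33.3%, against 7.03% of all genes) and below for 0. At an unadjusted p under 0.05 edgeR gave 2 higher and 0 lower, against 1.54% and 1.97% of all genes. PSMC1, an ATPase of the 19S cap, stood at 56.1 and 58.0 CPM in wild type, 78.5 and 71.3 CPM in AKAP1 null, and 63.6 and 64.6 CPM in LARP4 null (log2 0.39; edgeR unadjusted p = 0.0056). PSMC6, another of these ATPases, stood at 102 and 91.1 CPM against 126 and 112 CPM (log2 0.30). PSMA4, on chromosome 15, stood at 380 and 468 CPM against 291 and 439 CPM. Both this list and the CCT list were, like the heat shock list, made after the values were seen.

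Targets of NRF2, the factor of the oxidative stress response, formed the only other list of the 40 described with at least 5 tested genes whose median exceeded 0.05 in all 4 pairings. Of 17 tested, edgeR gave 4 higher and 0 lower at an unadjusted p under 0.05 (1.54% and 1.97% of all genes), the AKAP1 null libraries lay above the wild-type ones for 41.2% and below for 5.88% (17.8% and 17.9% of all genes), and the median log2 was 0.14. For 3 of the 17 (17.6%, against 7.03% of all genes) both lay above all 4 other libraries, and the median was 0.096 between LARP4 null and wild type and 0.047 between AKAP1 null and LARP4 null. HMOX1, which breaks down heme, stood at 15.8 and 9.06 CPM in wild type and 28.6 and 22.6 CPM in AKAP1 null, with 12.2 and 17.7 CPM in LARP4 null (log2 1.04 ± 0.31 SE). PRDX1, a peroxiredoxin, stood at 562 and 592 CPM against 698 and 719 CPM (log2 0.30), and GSR, glutathione reductase, at 114 and 102 CPM against 134 and 125 CPM (log2 0.27). ME1, malic enzyme, stood at 26.7 and 36.7 CPM against 47.0 and 46.8 CPM, lies on chromosome 6, and was as high in LARP4 null at 61.0 and 45.7 CPM. NQO1, a common marker of the response, stood at 11.2 and 4.54 CPM against 9.49 and 8.86 CPM and did not separate the genotypes.

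ER stress genes had a median log2 of 0.14 over 22 genes, with 50% above both wild-type libraries and 13.6% below both, against 17.8% and 17.9% of all genes. In edgeR 0 were past an unadjusted p of 0.05 in either direction, against 1.54% higher and 1.97% lower of all genes. The pairings ran from 0.0049 to 0.22, and the median between LARP4 null and wild type was 0.097. Both AKAP1 null libraries lay above all 4 other libraries for 2 of the 22 (9.09%, against 7.03% of all genes) and below for 1. HSPA5, the HSP70 of the ER lumen, stood at 669 and 550 CPM in wild type, 716 and 659 CPM in AKAP1 null, and 600 and 684 CPM in LARP4 null. CALR, a lectin chaperone, stood at 703 and 622 CPM against 780 and 758 CPM, whereas DNAJB9, a target of the unfolded protein response, stood at 17.5 and 16.8 CPM against 15.7 and 16.0 CPM. Targets of ATF4, the factor of the integrated stress response, had a median of -0.06 over 36 genes (-0.10 without AKAP1 null 2, -0.0083 without AKAP1 null 1 and 0.0039 without wild type 2) and none past an unadjusted p of 0.05 in edgeR, and ATF4 itself stood at 610 and 606 CPM against 612 and 619 CPM.

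mRNAs of mitochondrial proteins had, as a list, the median of all genes. The 657 nuclear-encoded mitochondrial genes were those of the study's list, each with at least 64 footprints in ribosome profiling of the OMM ligase, and all were tested. Both AKAP1 null libraries lay above both wild-type ones for 18.4% and below for 18.9%, close to the 17.8% and 17.9% of all genes, and the median log2 was 0.00. Of the 657, edgeR gave 5 higher (BAD, FDX1, GSR, MRPL13 and MRPL9) and 12 lower at an unadjusted p under 0.05, against 1.54% and 1.97% of all genes. Medians were 0.00 in the matrix (327 genes), 0.00 in the inner membrane (192), 0.00 in the outer membrane (53) and 0.00 in the intermembrane space (35). Complex I subunits had a median of -0.01 over 37 genes, ATP synthase subunits -0.01 over 18, complex IV subunits 0.00 over 12, and mitochondrial ribosomal proteins 0.05 over 78. Without wild type 2 the median was 0.033 for complex I, 0.024 for ATP synthase and 0.028 for all 657 genes. Complex I was at -0.043 without AKAP1 null 1, and complex IV at -0.072 without wild type 1. The intermembrane space was at -0.037 without AKAP1 null 1 and 0.032 without AKAP1 null 2. None of the 37 complex I, 18 ATP synthase or 12 complex IV genes was past an unadjusted p of 0.05 in edgeR, where 3.5% of all genes were. NDUFS1, a core subunit of complex I, stood at 225 and 246 CPM against 240 and 228 CPM, and ATP5F1B, the beta subunit of ATP synthase, at 744 and 720 CPM against 791 and 760 CPM.

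The mRNAs translated at the OMM were described apart. By ribosome profiling of the OMM ligase (log2 RPKM ratio of pulldown to total above 1.5, at least 64 footprints, 1 replicate), 74 of 657 mitochondrial genes were locally translated, 27 of them under 200 and 43 over 400 amino acids. The short ones had a median log2 of 0.03 in total input (pairings from -0.03 to 0.07, and -0.032 without AKAP1 null 1) and of -1.96 in the pulldowns from the same lysates. The long ones had -0.07 in total input (pairings from -0.046 to 0.0096, and -0.0099 to -0.021 when AKAP1 null 1, AKAP1 null 2 or wild type 1 was left out) and 1.10 in the pulldowns. Against wild type alone, both AKAP1 null libraries lay below both for 20.9% of the long genes and above for 16.3%, near the 17.9% and 17.8% of all genes. The median of the long genes was 0.19 between LARP4 null and wild type and -0.21 between AKAP1 null and LARP4 null. For 9 of the 43 long genes both AKAP1 null libraries lay below all 4 wild-type and LARP4 null libraries (20.9%, against 7.31% of all genes) and above all 4 for 2. AKAP1 itself is 1 of the 9. For the 27 short genes these counts were 0 and 2. COX7C, a short complex IV subunit, stood at 298 and 305 CPM in wild type and 268 and 274 CPM in AKAP1 null total input (log2 -0.16 ± 0.12 SE), and its pulldown log2 was -1.96. HSPD1, the mitochondrial HSP60, stood at 1374 and 1494 CPM against 1686 and 1588 CPM (log2 0.19), and its pulldown log2 was 1.47. A pulldown level also moves with recruitment to the OMM, so it is no second measure of total level. Cytosolic ribosomal protein genes gave a median of 0.02 over 85 genes in total input and -1.46 in the pulldowns. In total input 0 of them were past an unadjusted p of 0.05 in edgeR, against 1.54% higher and 1.97% lower of all genes.

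The mitochondrial genes lower at an unadjusted p under 0.05 included AKAP1, IDH2, IDI1, ALDH1L2, ABCB10, MRPL40, DHODH, PDP1, NIPSNAP1, BNIP3L and MTX3. ABCB10, an inner-membrane transporter of erythroid and heme metabolism, stood at 79.4 and 83.3 CPM against 54.5 and 63.3 CPM (log2 -0.47). MRPL40, a subunit of the mitochondrial ribosome, stood at 58.5 and 61.0 CPM against 40.0 and 47.9 CPM (log2 -0.44). IDH2, a matrix isocitrate dehydrogenase encoded on chromosome 15, stood at 59.5 and 53.4 CPM against 30.0 and 44.2 CPM (log2 -0.61). DHODH, which links pyrimidine synthesis to the respiratory chain, stood at 20.18 and 20.08 CPM against 14.99 and 16.26 CPM. In each of these 4 genes both AKAP1 null libraries lay below both wild-type ones, and edgeR gave each an adjusted p of 0.97.

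**Figure D4:**
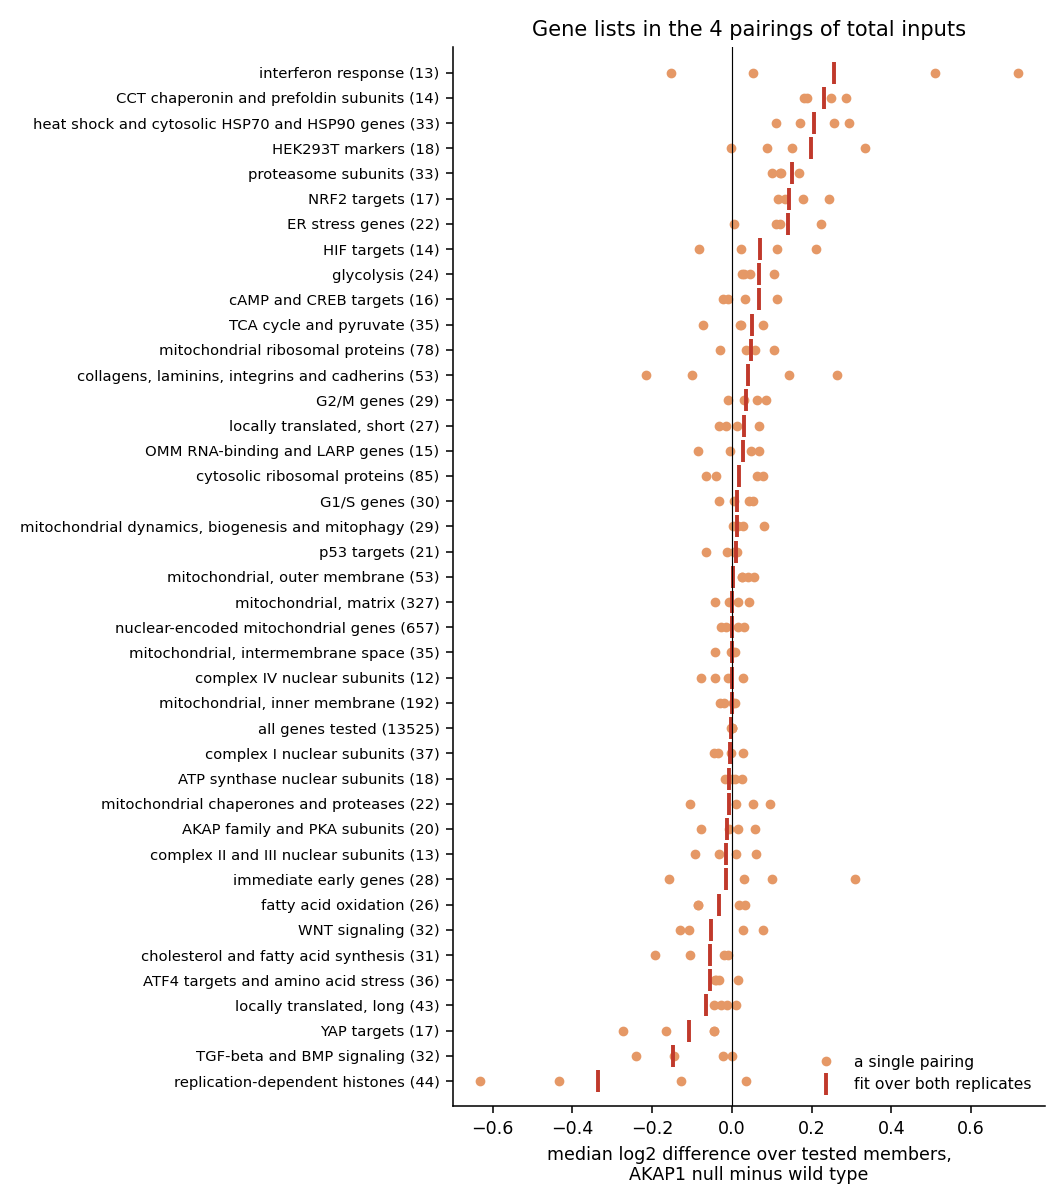
Median log2 difference of AKAP1 null from wild type over the tested members of each gene list (number in brackets), for each of the 4 pairings of single total inputs (orange points) and for the fit (red bars). All 4 points of the CCT (0.18 to 0.29), heat shock (0.11 to 0.29), proteasome (0.10 to 0.17) and NRF2 lists lie right of 0, while the mitochondrial lists lie close to 0.

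Of the 40 lists, 30 had a fitted median within 0.1 of 0, 8 had a median above 0 in all 4 pairings and 3 had one below 0 in all 4. The 3 lower lists were TGF-beta and BMP signaling (32 genes, median -0.15, lowest pairing -0.24 and highest just under 0), YAP targets (17 genes, -0.11) and cholesterol and fatty acid synthesis (31 genes, -0.05, and -0.15 without wild type 1). In the TGF-beta and BMP list both AKAP1 null libraries lay below both wild-type ones for 31.2% and above for 0%, against 17.9% and 17.8% of all genes, and edgeR gave 0 higher and 1 lower at an unadjusted p under 0.05, against 1.54% and 1.97%. That gene was SMAD6, an inhibitor of BMP signaling on chromosome 15, at 47.7 and 49.6 CPM in wild type, 26.0 and 35.3 CPM in AKAP1 null, and 40.7 and 33.2 CPM in LARP4 null (log2 -0.67). Without wild type 1 the median of this list turned to 0.03 and that of the YAP targets to 0.069, and without wild type 2 the latter was -0.23. Without the genes of chromosomes 6 and 15, added after seeing the data, the median of the TGF-beta and BMP list was -0.084. Replication-dependent histones had the lowest median, -0.34 over 44 genes, but the pairings ran from -0.63 to 0.03 and the 2 wild-type libraries themselves differed by a median of 0.56. H2AC11, a core histone H2A, stood at 388 and 617 CPM in wild type, 318 and 331 CPM in AKAP1 null, and 427 and 425 CPM in LARP4 null (log2 -0.63; edgeR unadjusted p = 0.0194). For 29.5% of the 44 histone genes both AKAP1 null libraries lay below both wild-type ones, and for 4.55% above, against 17.9% and 17.8% of all genes. Of the 44, 36 lie on chromosome 6, and the 8 elsewhere had a median of -0.40, with 6 below both wild-type libraries. The interferon list had the highest median, 0.26 over 13 genes, with pairings from -0.15 to 0.72.

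Chromosomes 15 and 6 held larger shares of the lower and higher genes than of the genes tested. Of the 266 genes lower at an unadjusted p under 0.05, 60 (22.6%) lay on chromosome 15, which holds 464 of the tested genes (3.43%), and of the 208 higher genes 46 (22.1%) lay on chromosome 6, which holds 719 (5.32%). The median log2 was -0.28 over chromosome 15 and 0.12 over chromosome 6. Chromosome 15 stood, relative to the mean of 6 total inputs, at -0.01 and 0.26 in wild type, at -0.25 and -0.05 in AKAP1 null, and at -0.03 and 0.07 in LARP4 null. It was thus high in wild type 2 and low in AKAP1 null 1, and the 4 pairings gave -0.21, -0.52, -0.03 and -0.28. Chromosome 6 stood at -0.29 in wild type 1 and between 0.02 and 0.10 in the other 5 libraries, so the median of its genes was low in that 1 library. Its parts differed. Over its first 50 tested genes (chr6:291630-11044305) the median log2 was -0.09, and replicate 2 minus replicate 1 was 0.63 in wild type and 0.395 in LARP4 null. Over a late run of 50 (chr6:149942014-166342576) these values were 0.19, 0.42 and 0.0099. Counts moved with single libraries: the chromosome 15 count of lower genes was 9 without AKAP1 null 1, 10 without wild type 2, 113 without AKAP1 null 2, 135 without wild type 1 and 110 with the replicate number as a block, and the chromosome 6 count of higher genes was 20 without wild type 1, 12 without AKAP1 null 1, 24 without AKAP1 null 2 and 200 without wild type 2.

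Of the 60 lower genes of chromosome 15, 55 lay in 1 stretch. Windows of 50 consecutive tested genes with a median beyond 0.25 joined into chr15:44728988-100603230, with 325 genes, a median log2 of -0.37, 305 genes below 0 and 158 with both AKAP1 null libraries below both wild-type ones (17.9% of all genes). These windows were chosen by the same difference, so the counts only describe the stretch. Its median stood at 0.33 in wild type 2 and -0.33 in AKAP1 null 1, and between -0.06 and 0.09 in the other 4, and the pulldowns of the 2 lysates gave 0.33 and -0.34. The stretch was not uniform. In its first window (chr15:44728988-55743152) the median of replicate 2 minus replicate 1 was 0.54 in wild type, -0.04 in AKAP1 null and 0.56 in LARP4 null. In its last window (chr15:89087459-100603230) these medians were 0.30, 0.33 and 0.07. The other such regions were chr1:224175756-243851079 (100 genes, median -0.29) and chr3:58427630-94063389 (50 genes, median -0.28). The region on chromosome 1 stood at -0.39 in AKAP1 null 1 but at 0.21 in AKAP1 null 2, and at -0.44 in LARP4 null 2. Windows beyond 0.25 numbered 16 of 505 between AKAP1 null and wild type, and 41 between the 2 wild-type libraries, 17 between the 2 AKAP1 null libraries and 41 between the 2 LARP4 null libraries. DNA copy number was not measured, and its part in these stretches was not tested. Outside chromosomes 6 and 15, edgeR's unadjusted p was under 0.05 for 160 genes higher and 203 lower of 12342.

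**Figure D5:**
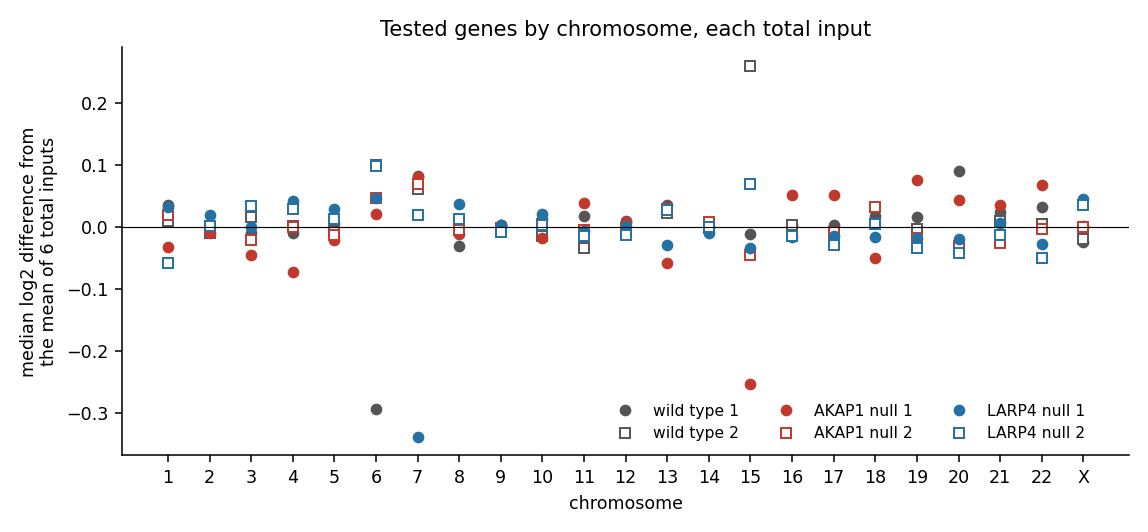
Median log2 difference of the tested genes of each chromosome (horizontal axis) from the mean of the 6 total inputs with CHX; circles are replicate 1 and open squares replicate 2 of wild type (grey), AKAP1 null (red) and LARP4 null (blue). Wild type 1 stands apart on chromosome 6 (-0.29), LARP4 null 1 on chromosome 7 (-0.34), and wild type 2 (0.26) and AKAP1 null 1 (-0.25) on chromosome 15.

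The libraries carried the marks of the labelled line. Of 20 HEK293T markers none was at 0 counts and 18 were tested. Their summed level was 1334 and 1284 CPM in wild type and 1446 and 1480 CPM in AKAP1 null. VIM, the intermediate filament of mesenchymal cells and the marker with the most counts, stood at 474 and 483 CPM against 553 and 627 CPM (log2 0.30), and NEFL, a neurofilament that HEK293T cells express, at 89.9 and 98.5 CPM against 67.2 and 77.8 CPM (log2 -0.38). The 13 blood cell markers summed to 1.95 and 1.33 CPM in wild type and 2.59 and 2.16 CPM in AKAP1 null, with 4 markers at 0 counts and none tested. The 13 fibroblast and endothelial markers summed to 27.5 and 18.2 CPM against 30.8 and 17.8 CPM, led by COL1A1, and the 10 hepatocyte and intestinal markers to 32.1 and 28.7 CPM against 24.1 and 32.1 CPM, led by CDX2. All 37 genes of the mitochondrial genome were listed at 0 counts in every library, so the mRNAs made inside mitochondria gave no value here. Protein-coding genes of the nuclear genome took 96.6% to 97.1% of counts in the total inputs. Noncoding RNAs (lncRNA, 1087 tested) had a median log2 of -0.05 between AKAP1 null and wild type (-0.019 without wild type 2), beside 0.00 for protein-coding genes.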

How the data were processed

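rRNA-depleted, paired-end libraries were aligned by the authors to GRCh38 (STAR) and each gene's read count was made with featureCounts. The deposited column named FPKM is 10 times the FPKM the counts give, was treated as a score and was not used. The deposited ribosome profiling files give estimated counts and RPKM per coding sequence, used only to name locally translated genes. Genes with a mean of at least 64 counts over the 4 AKAP1 null and wild-type total inputs were kept. Their counts in 6 total inputs (wild type, AKAP1 null and LARP4 null, 2 each) were scaled by TMM. They were tested with edgeR 4.0.16 (quasi-likelihood, two-sided, genotype as the only term, 3 residual degrees of freedom, Benjamini-Hochberg over 13525 genes) in R 4.3.3. DESeq2 1.42.0 and limma 3.58.1 (voom) were alternatives, with other scalings, filters, a replicate block and left-out replicates. The steps were tested on simulated counts. The main fit did not pair samples by replicate number. Over genes, differences of replicate 2 minus replicate 1 correlated at 0.204 (wild type and AKAP1 null), 0.349 (wild type and LARP4 null) and -0.080 (AKAP1 null and LARP4 null). Some regional steps were shared: over chr3:58427630-94063389 the median difference was 0.36 in wild type and 0.39 in LARP4 null. Whether replicate numbers mark pairs was not settled.

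Members and gene lists were chosen with earlier results of these data known, and the heat shock, CCT and proteasome lists after gene values were seen. Named genes were to be AKAP1, LARP4, the AKAP and PKA list and the largest changes among called genes; since edgeR called none, those called by DESeq2, those at least 2-fold apart in all 4 pairings and list members past an unadjusted p of 0.05 or with the most counts were named after their values were seen. Mitochondrial genes and compartments came from the study's list, names only. No counting interval is given, since replicate spread was larger. The counting setting for strand is not given in the sources used here, so overlapping antisense genes cannot be told apart. A few items are not reported here.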

Additional observations from a re-analysis of the deposited data

How the results depend on the processing

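Precision is limited by 2 libraries a genotype and by the spread between them, not by depth. Of 1309 recomputed values of 83 named genes other than AKAP1, 1278 kept their direction and side of the threshold, 13 passed it, all under DESeq2, and 18 turned in sign. Of 747 list medians 690 moved by less than the replicate spread and 57 by more, and the median of all genes moved by under 0.1. DESeq2 called 7 genes higher and 7 lower in AKAP1 null, with AKAP1 at log2 -2.15 (adjusted p = 2.5e-17), and 21 higher and 13 lower than in LARP4 null. A minimum mean of 1 count gave 1 higher and 1 lower (AKAP1, log2 -2.14, adjusted p = 0.0474), 485 and 549 at an unadjusted p under 0.05, and 2 higher and 1 lower than in LARP4 null. Library totals, upper quartile scaling and the highest minimum count tried each gave 1 gene higher than in LARP4 null. Leaving out 1 replicate at a time, the LARP4 null ones added after seeing the data, AKAP1 ran from -2.51 to -1.87, genes at an unadjusted p under 0.05 from 51 to 405 higher and from 82 to 456 lower, and genes lower than in LARP4 null from 0 to 1 (1 without LARP4 null 2). The lowest counts, 51 and 82, came without AKAP1 null 1. With the replicate number as a block, AKAP1 was -2.16 (adjusted p = 0.311), edgeR called 0 genes, and 277 higher and 338 lower were under an unadjusted p of 0.05; the block changed no call of a single gene. NDUFS1 turned to 0.0049 under upper quartile scaling and 0.0026 at a minimum mean of 1 count, and ZNF91 to -0.89 under limma voom. Over left-out replicates the log2 values that turned ran from -0.067 to 0.058 for NDUFS1, -0.096 to 0.17 for CCT3, -0.35 to 0.080 for CDX2, -0.53 to 0.90 for COL1A1, -0.084 to 0.13 for LARP4, -0.29 to 1.02 for NQO1, -0.54 to 0.049 for PSMA4, -0.74 to 11.8 for TNFRSF10D and -3.27 to 1.01 for ZNF91. TNFRSF10D had 0 counts in wild type 1, so its value of 11.8 gives a direction only and no exact size. The cause of these differences between tools and filters was not tested.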
